A study of Homo sapiens with 2 samples.

Results

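The peaks described here are those at the end of the long arm of human chromosome 19, in band 19q13.4, where genes for zinc-finger proteins lie in 2 large clusters. They were chosen by position alone, as every summit on chromosome 19 from 52000000 to the chromosome end at 59128983 in the assembly GRCh37. This gave 602 of 105637 peaks in the list (0.570%), and 602 of the 4645 peaks on chromosome 19 (12.96%). The stretch was divided into a centromere-side zinc-finger part (up to 54099999, 153 peaks), a middle part (54100000 to 56499999, 228 peaks) and a telomere-side zinc-finger part (from 56500000, 221 peaks). The zinc-finger parts together held 374 peaks, and the rest of 19q, from the first summit of the long arm at 27732058 up to 52000000, held 2481.

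Chromatin of A549, a line of human lung adenocarcinoma cells, was precipitated with an antibody against Myocardin (anti-Myocardin) or with nonspecific IgG, 1 library each. Both libraries came from the same stable line carrying the pWPI vector for overexpression of MYOCD, and no line without that vector was analysed here. The authors deposited 1 list of single-base summits, each with a peak score, and it ties no peak to either antibody. Neither the unit of the score nor the depth of the libraries is given in the sources used here. With 1 list and no replicate, the 95% intervals below cover counting error alone and take each peak as independent of its neighbours. They do not show how far a second experiment would differ, and no p-value is given.

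Zinc-finger proteins of the KRAB type are DNA-binding repressors. They act through the corepressor TRIM28, which recruits enzymes that place the repressive mark H3K9me3, and many of them bind and silence transposable elements. Their genes arose by repeated tandem duplication, and in many cell types the exons that encode the fingers carry H3K9me3 themselves while the promoters stay open. Between the clusters lies the leukocyte receptor complex, with the LILR and KIR receptor families of immune cells. Myocardin, a coactivator of muscle genes, reaches chromatin mainly through its partner SRF, which binds the CArG box.

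The order of genes was read from a RefSeq table of GRCh38.p14, by symbol only. From SIGLEC6 to ZNF331 the table lists 56 protein-coding genes, of which 41 carry a zinc-finger symbol (73.2%; ZNF, ZSCAN, ZIM, ZFP, ZIK or ZBTB, or PEG3 or MZF1), beside 3 FPR genes for formyl peptide receptors and 3 SIGLEC genes for sialic-acid-binding receptors. From DPRX to NLRP5 it lists 95 genes, of which 7 carry such a symbol (7.37%), and this run holds 19 LILR, LAIR and KIR genes and 9 NLRP genes of the inflammasome family. From ZNF787 to MZF1, the last protein-coding gene of the arm, 67 of 87 genes carry such a symbol (77.0%), and TRIM28 is among the last genes of this run. These runs were picked for this description and were not placed on GRCh37, so the peaks below are described by position and not by gene. Genes of the rest of 19q were not counted, so it cannot be taken as free of zinc-finger genes. Sequence under the peaks was not analysed here, since no GRCh37 genome was used.

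The zinc-finger parts carried fewer peaks per Mb than the middle part and than the rest of 19q. The density was 79.1 peaks per Mb in the zinc-finger parts (95% Poisson interval 71.3 to 87.5), against 95 in the middle part (83.1 to 108.2) and 102.2 in the rest of 19q (98.3 to 106.3). The ratio of the zinc-finger parts to the middle part was 0.832 (exact conditional 95% interval 0.704 to 0.986), and with summits less than 1 kb apart counted once its interval reached 1 (0.841, 0.706 to 1.004). By part, this ratio was 0.767 on the centromere side (0.621 to 0.945). On the telomere side it was 0.885, and the interval (0.732 to 1.07) included 1. The ratio of the zinc-finger parts to the rest of 19q was 0.774 (0.692 to 0.863). The centromere-side part had 72.9 peaks per Mb (61.8 to 85.4) and the telomere-side part 84.1 (73.3 to 95.9), with a ratio of 0.867 whose interval, 0.701 to 1.07, included 1. The middle part was 0.929 times as dense as the rest of 19q (0.808 to 1.06).

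Against the middle part, the deficit lay in the low scores. A peak was counted as high-scoring when its score was at least 12.2, the upper quartile of the list, and ties at that value brought the share over the whole list to 26.3%. In the zinc-finger parts 109 of 374 peaks were high-scoring (29.1%, exact Clopper-Pearson interval 24.6 to 34.0), against 39 of 228 in the middle part (17.1%, 12.5 to 22.6) and 611 of 2481 in the rest of 19q (24.6%, 22.9 to 26.4). The zinc-finger parts thus lay near the share of the whole list, and the middle part below it. The difference was 12.04 percentage points between the zinc-finger parts and the middle part (Newcombe interval 5.07 to 18.5) and 4.52 points between the zinc-finger parts and the rest of 19q (-0.189 to 9.59). That second interval excluded 0 at the limit of the top 50% (6.08 points, 0.647 to 11.4) and with often repeated scores left out (6.73 points, 1.58 to 12.2). By part, the difference from the middle part was 15.5 points on the telomere side (7.51 to 23.2). On the centromere side it was 7.08 points, and the interval (-1.08 to 15.6) included 0. At the stricter limit of 17.4, which 10.0% of the list reached, 35 peaks passed in the zinc-finger parts (9.36%) and 11 in the middle part (4.82%), a difference of 4.53 points (0.115 to 8.52).

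Set out by score class, the density ratio changed step by step. Among peaks below 6.49, the lowest of 4 classes cut at the quartiles of the list, the zinc-finger parts had 17.8 peaks per Mb and the middle part 34.2, a ratio of 0.520 (0.379 to 0.714). From 6.49 to 8.50 the ratio was 0.707 (0.503 to 0.999), and from 8.50 to 12.2 it was 1.06 (0.738 to 1.54). Among the high-scoring peaks the direction turned, with 23.0 peaks per Mb in the zinc-finger parts and 16.3 in the middle part, a ratio of 1.42 whose interval (0.976 to 2.10) included 1. Against the rest of 19q the ratio was 0.638 (0.502 to 0.801) in the lowest class and 0.915 (0.740 to 1.12) in the highest, but the centromere-side part alone had ratios of 0.633, 0.640, 0.889 and 0.700 in the 4 classes from low to high, with an interval that included 1 only in the class from 8.50 to 12.2. All peaks below the high-scoring limit were, as 1 group, 0.712 times as dense in the zinc-finger parts as in the middle part (0.588 to 0.862).

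**Figure D1:**
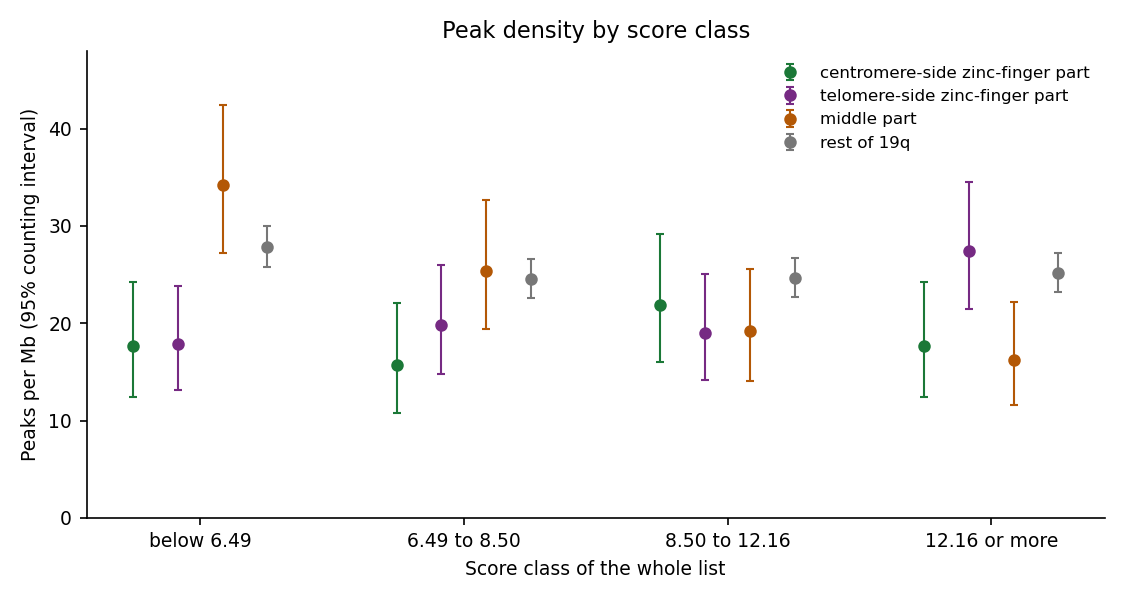
Peaks per Mb (vertical axis, with 95% Poisson intervals) in 4 score classes of the list, for both zinc-finger parts, the middle part and the rest of 19q. In the lowest class the centromere-side and telomere-side parts sit at 17.6 and 17.9 peaks per Mb, below the middle part at 34.2 and the rest of 19q at 27.9, while in the highest class the telomere-side part reaches 27.4, against 16.3 in the middle part and 25.2 in the rest of 19q.

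Both zinc-finger parts had fewer peaks of the lowest class than the middle part, but the density of their high-scoring peaks differed. The lowest class was 0.516 times as dense in the centromere-side part (0.340 to 0.769) and 0.523 times as dense in the telomere-side part (0.358 to 0.758) as in the middle part. High-scoring peaks were 1.69 times as dense in the telomere-side part as in the middle part (27.4 against 16.3 per Mb, 1.13 to 2.56), whereas in the centromere-side part they were 1.08 times as dense (17.6 per Mb, 0.672 to 1.75). Against the rest of 19q, high-scoring peaks were 0.700 times as dense in the centromere-side part (0.488 to 0.976) and 1.09 times as dense in the telomere-side part (0.840 to 1.39). The middle part was itself low in them, at 0.645 times the density of the rest of 19q (0.454 to 0.893). Between both zinc-finger parts the ratio of high-scoring peaks was 0.643, centromere side over telomere side (0.421 to 0.969). The share of high-scoring peaks was 24.2% on the centromere side (37 of 153) and 32.6% on the telomere side (72 of 221), a difference of -8.40 points with an interval from -17.3 to 0.999. The telomere-side share exceeded that of the rest of 19q by 7.95 points (1.86 to 14.6), and the interval included 0 at the limits of the top 10% and the top 50% and among peaks with the nearest summit at 5 kb or more. The median score was 9.04 in the centromere-side part and 9.22 in the telomere-side part, against 7.64 in the middle part and 8.39 in the rest of 19q.

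Along the region the counts were uneven in all parts. In the centromere-side part the first 500 kb held 29 peaks and the next 28, and the stretches that followed held 41 peaks in 500 kb and 55 in 600 kb. Windows of 100 kb ran from 2 to 11 peaks there, with a median of 7. The fewest lay from 52300000 to 52399999, a window that also contains the longest distance between neighbouring summits of that part, 87.8 kb from 52303371 to 52391144. High-scoring peaks were as uneven. Between 52500000 and 52999999 they made up 3 of 28 peaks (10.7%, 2.27 to 28.2), and in the next 500 kb 14 of 41 (34.1%, 20.1 to 50.6).

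The telomere-side part began sparse and ended dense. From 57000000 to 57499999 it held 23 peaks, or 46.0 per Mb (29.2 to 69.0), the fewest of any 500 kb stretch of the region, yet 12 of them were high-scoring (52.2%, 30.6 to 73.2). Within that stretch all 5 peaks of the window from 57100000 were high-scoring, and none of the 4 in the window from 57200000 was. From 57500000 to 57999999, 13 of 36 peaks were high-scoring (36.1%), and from 58000000 to 58499999, 16 of 44 (36.4%). The last stretch, from 58500000 to the chromosome end, was the densest of the telomere side with 82 peaks, or 130.4 per Mb (103.7 to 161.8), of which 21 were high-scoring (25.6%, 16.6 to 36.4). Its first window, from 58500000, held 15 peaks, the highest count of either zinc-finger part. Within the telomere-side part the sparse stretch thus had the larger share of high scores, but with 23 peaks its interval overlapped that of the dense end.

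**Figure D2:**
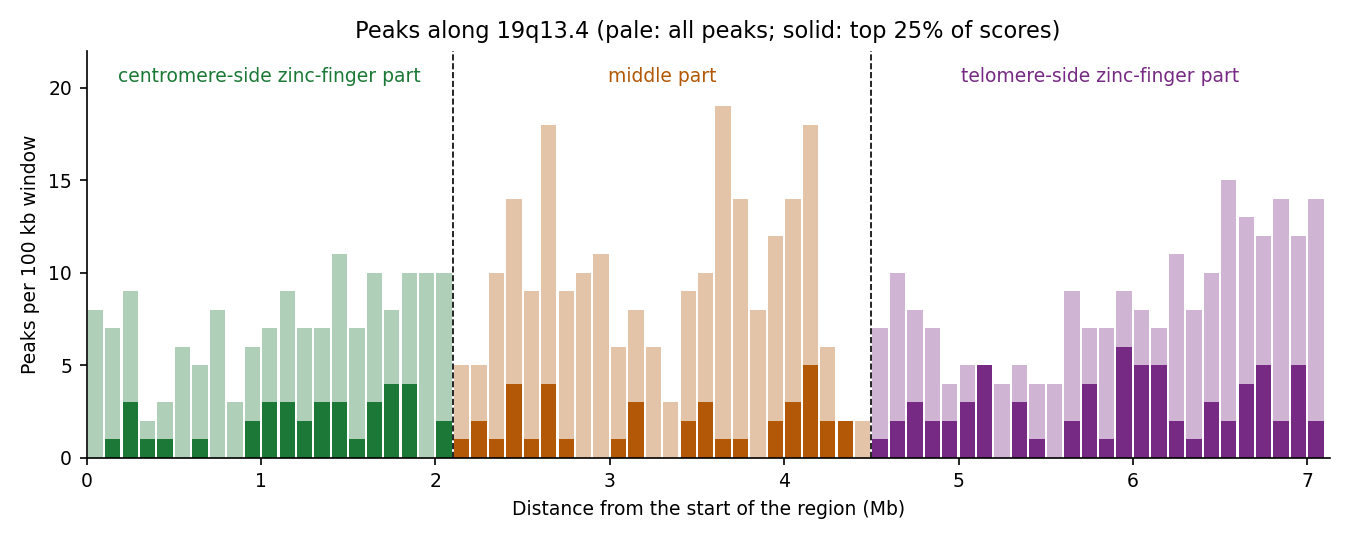
Peaks in windows of 100 kb (vertical axis) by distance from the start of the region in Mb, with all peaks pale and those in the top 25% of scores solid. The last, incomplete window is not drawn. Windows of the centromere-side part hold 2 to 11 peaks and those of the telomere-side part 4 to 15, against 2 to 19 in the middle part.

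In the middle part the peaks came in bursts. The stretch from 55600000 to 56099999 held 67 peaks, or 134.0 per Mb (103.8 to 170.2), and 7 of them were high-scoring (10.4%, 4.30 to 20.35). Its window from 55600000 held 19 peaks, the highest count of the region, with 1 high-scoring. The 2 windows from 56300000 to 56499999 held 2 peaks each, and the longest distance between neighbouring summits of the region, 108.3 kb, ran from 56362456 to 56470752 within them. Windows with at least 10 peaks made up 14 of 47 in the zinc-finger parts (29.8%), 11 of 24 in the middle part (45.8%) and 136 of 242 in the rest of 19q (56.2%). The median count per window was 8 in the zinc-finger parts, 9 in the middle part and 10 in the rest of 19q, and the ranges of single windows overlapped.

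The 2 highest scores of the region lay in the telomere-side part. The strongest peak, at 57454328, scored 72.9, ranked 68 in the list and 2 on chromosome 19, and its nearest summit was 23.5 kb away with only 2 others within 50 kb. It closed a distance of 53.0 kb without a summit, from 57401371. The peak at 59118027 scored 48.4 (rank 173 in the list), lay 10.96 kb from the chromosome end and was followed by the last summit of the chromosome 720 bp further on. The next in this part were at 56687609 with 33.2, 56879712 with 30.1 and 58011523 with 27.5. No list value shows whether any of these peaks was also present with IgG.

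The strongest peaks of the centromere-side part were weaker. They lay at 53540721 with a score of 25.7, 52222657 with 25.4, 53773691 with 22.1, 52104472 with 21.9 and 52954743 with 21.5, and the highest of them ranked 2191 in the list. The middle part had 2 higher values, 45.0 at 56181850 (rank 224 in the list) and 35.3 at 54613181 (rank 504), followed by 25.4 at 55913004, 25.1 at 56334114 and 23.1 at 56133628. Its 2 strongest peaks stood among many neighbours, with 11 and 12 other summits within 50 kb. A score of at least 20 was reached by 7 peaks of the centromere-side part (4.58%) and 14 of the telomere-side part (6.33%), against 5 of the middle part (2.19%), 119 of the rest of 19q (4.80%) and 6.16% of the whole list.

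**Figure D3:**
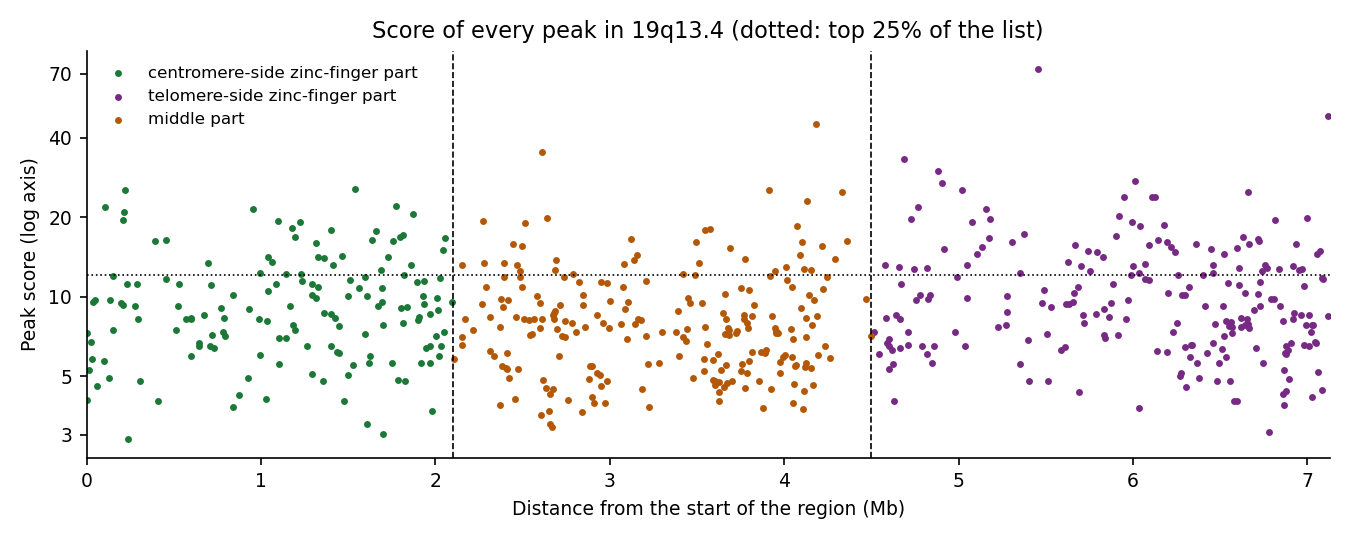
Score of each of the 602 peaks (vertical axis, log scale) by distance from the start of the region in Mb, colored by part, with the limit of the top 25% of the list dotted. The strongest peak, at 72.9, stands alone in the telomere-side part, and peaks of the centromere-side part stay at or below 25.7.

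Summits of the zinc-finger parts stood farther apart. Such distances depend on the number of peaks per Mb, and whether spacing differed beyond the density given above was not tested. The median distance between neighbouring summits was 9.19 kb on both the centromere side and the telomere side, against 7.29 kb in the middle part and 6.76 kb in the rest of 19q. Another summit lay within 10 kb of 79.1% of peaks in the zinc-finger parts (74.7 to 83.2), against 85.5% in the middle part (80.3 to 89.8) and 87.7% in the rest of 19q (86.3 to 89.0). The difference from the rest of 19q was -8.56 points (-13.1 to -4.52), and the difference from the middle part was -6.38 points, with an interval from -12.3 to 0.0293. Distances of 0.5 to 1.5 kb made up 15.1% on the centromere side and 5.45% on the telomere side (23 of 152 and 12 of 220), against 11.01% in the middle part and 13.7% in the rest of 19q. The centromere side exceeded the telomere side here by 9.68 points (3.51 to 16.6). Distances of 20 kb or more made up 27.0% on the centromere side and 16.4% on the telomere side, against 11.5% in the middle part and 10.6% in the rest of 19q. The centromere side exceeded the telomere side in this class too, by 10.6 points (2.18 to 19.3). Distances of 1.5 to 5 kb went the other way, with 11.2% on the centromere side and 20.9% on the telomere side, a difference of -9.72 points (-16.9 to -2.01).

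Fewer peaks of the zinc-finger parts stood in long chains. Chain length also depends on the number of peaks per Mb, and no comparison at equal density was made. With summits no more than 10 kb apart joined into chains, chains of at least 5 summits held 18.98% of peaks in the zinc-finger parts, against 42.5% in the middle part and 47.96% in the rest of 19q. The longest chains had 9 summits in each zinc-finger part, from 54005888 to 54057542 (51.7 kb) on the centromere side and from 58511736 to 58554487 (42.8 kb) on the telomere side. In the middle part the longest had 14 summits, from 54632489 to 54695393 (62.9 kb), and in the rest of 19q it had 32, over 156.9 kb. Another high-scoring summit lay within 10 kb of 25 of the 109 high-scoring peaks in the zinc-finger parts (22.9%, 15.4 to 32.0), against 6 of 39 in the middle part (15.4%, 5.86 to 30.5) and 246 of 611 in the rest of 19q (40.3%, 36.3 to 44.3). The difference between the zinc-finger parts and the rest of 19q was -17.3 points (-25.3 to -7.80).

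Scores moved with spacing, so the parts were also set side by side at like distance to the nearest summit. With the nearest summit under 5 kb away, high-scoring peaks made up 21.9% in the zinc-finger parts (40 of 183) and 15.1% in the middle part (19 of 126), a difference of 6.78 points (-2.27 to 15.1). At 5 to 10 kb the share was 31.9% in the zinc-finger parts and 18.8% in the middle part (13.0 points, -0.325 to 24.8). At 10 kb or more it was 42.3% in the zinc-finger parts and 21.2% in the middle part (21.1 points, 1.59 to 36.4). The direction was thus the same in all 3 classes, and only in the last did the interval exclude 0. In that class the telomere-side part had 25 of 49 peaks high-scoring (51.0%, 36.3 to 65.6), against 8 of 29 on the centromere side (27.6%, 12.7 to 47.2) and 99 of 305 in the rest of 19q (32.5%, 27.2 to 38.0). The telomere-side share exceeded that of the rest of 19q by 18.6 points in this class (3.96 to 32.9). At shorter distances the interval included 0, with a difference of 4.96 points under 5 kb (-2.67 to 14.3) and of -0.42 points at 5 to 10 kb (-10.8 to 11.8).

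**Figure D4:**
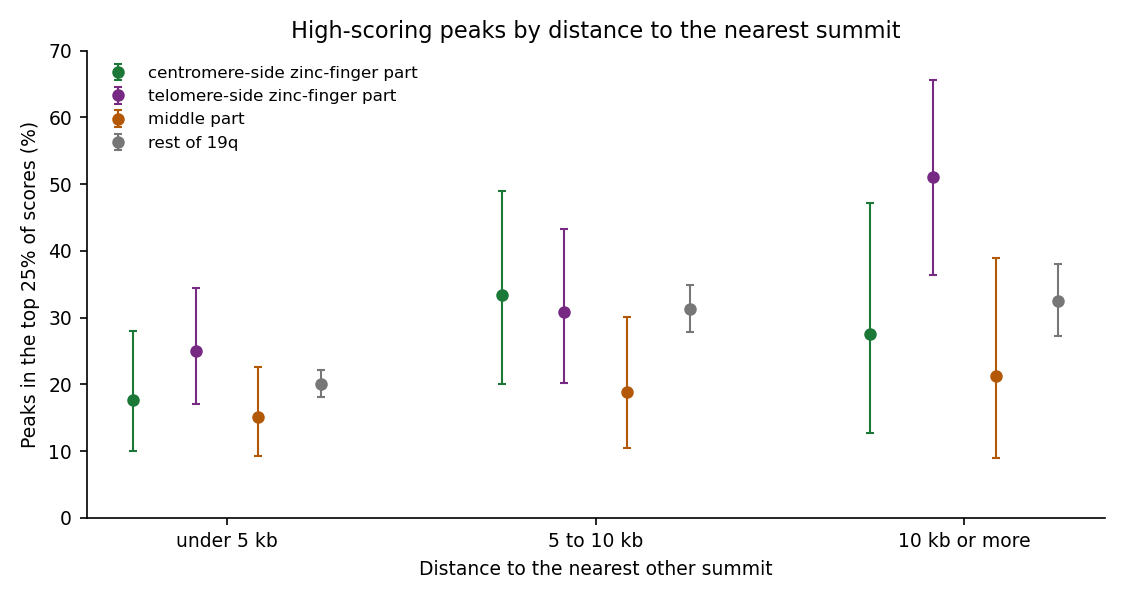
High-scoring peaks as a share of all peaks (vertical axis in percent, with exact 95% intervals) by distance to the nearest other summit, for both zinc-finger parts, the middle part and the rest of 19q. Among peaks with no summit within 10 kb, 51.0% of those in the telomere-side part were high-scoring, against 21.2% in the middle part and 32.5% in the rest of 19q.

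Scores that recur exactly many times were more frequent on the centromere side than in the other parts, but scarcer than in the whole list. The list holds 19 score values shared by at least 150 peaks each, which together cover 29.4% of all peaks. They covered 25 of 153 peaks in the centromere-side part (16.3%, 10.9 to 23.2) and 21 of 221 in the telomere-side part (9.50%, 5.98 to 14.2), against 13 of 228 in the middle part (5.70%, 3.07 to 9.55) and 7.05% of the rest of 19q (6.08 to 8.13). The centromere-side share exceeded that of the middle part by 10.6 points (4.34 to 17.7). It exceeded that of the telomere-side part by 6.84 points, with an interval from 0.0374 to 14.2. In the region the most frequent of these values was 8.28, with 10 peaks, and the highest one present was 13.2, with 2 peaks. Without these peaks the ratio of densities between the zinc-finger parts and the middle part was 0.774 (0.650 to 0.924).

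In the setting of the whole arm, the contrast between few peaks and high scores was widest in the bin from 57000000 to 57999999. Of the 31 full bins of 1 Mb from 28000000 on, this bin ranked 28 by number of peaks, with 59, and 1 by share of high-scoring peaks, with 42.4%. A bin outside the region came near it. From 43000000 there were 62 peaks (rank 27), of which 37.1% were high-scoring (rank 2). The bin from 52000000 also had few peaks, 57, but only 15.8% of them were high-scoring (rank 28). The bins from 54000000 and 55000000, mainly the middle part, had 101 and 95 peaks with shares of 15.8% and 13.7%, and 13.7% was the lowest of the 31. The bins of the rest of 19q ran from 33 to 141 peaks, with shares from 14.6% to 37.1%. The stretch of equal length just before the region, from 44871016 up to 52000000, was dense and low-scoring, with 116.7 peaks per Mb (108.9 to 124.9) and 16.9% of peaks high-scoring (14.5 to 19.7). Relative to that neighbour the zinc-finger parts were 0.678 times as dense (0.598 to 0.767) and their share of high-scoring peaks was 12.2 points higher (7.06 to 17.6).

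**Figure D5:**
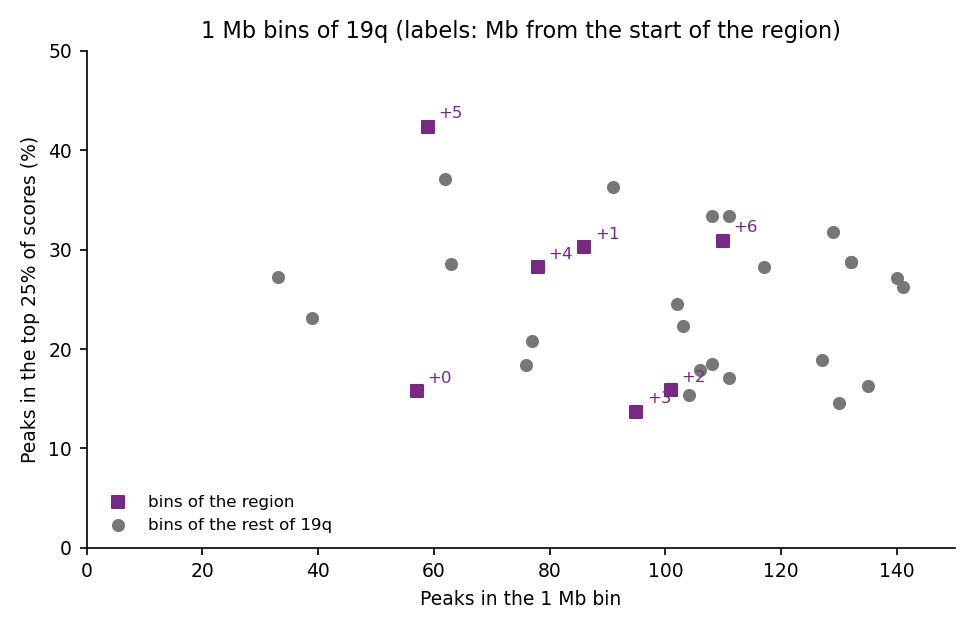
High-scoring peaks as a share of all peaks (vertical axis, percent) against the number of peaks in 1 Mb bins of 19q, with the 7 full bins of the region as squares labelled by their distance in Mb from its start and the 24 bins of the rest of 19q as circles. The bin at +5, with 59 peaks, lies highest at 42.4%, and the bins at +2 and +3 lie low at 15.8% and 13.7%.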

How the data were processed

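The authors deposited 1 list of peak summits with a peak score, per the file headers. The header names no unit for the score, which served only to rank or filter peaks. The name of the list refers to MACS. Not given in the sources used here are its threshold, the aligner and any use of IgG as control. The submitters' processing notes name CASAVA 1.4, mm9 and GRCh38.p12. All positions fit the chromosome lengths of GRCh37, whereas 65 of the 602 peaks lie past the end of chromosome 19 in GRCh38. Depth is unknown, and 0 columns of per-sample values were left out.

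Analyses used Python 3.11.15, NumPy 2.4.6, SciPy 1.17.1, pandas 2.3.3 and Matplotlib 3.10.9. Densities carry Poisson, ratios exact conditional and shares Clopper-Pearson intervals, and differences of shares Newcombe's, all at 95%. The ratio and difference intervals were tried only on simulated independent counts, which cannot show how they hold for unevenly placed summits. Positions are 1-based. The long arm was taken to start after the longest distance between summits of chromosome 19. The parts and measures were chosen with earlier results of these data known. Peaks named by score are the 5 highest of each part. Windows, stretches and bins were named by their extremes, chains and score classes were added, and both were chosen after values were seen. The planned analyses of start sites and of the CArG box need GRCh37 and were not run. Alternatives are given in the closing section.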

Additional observations from a re-analysis of the deposited data

How the results depend on the processing

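Of 56 alternatives to 13 results, 42 stayed within the interval of the value reported, 12 left it and 2 turned a ratio whose interval excluded 1. The density ratio of the zinc-finger parts to the middle part, 0.832, turned to 1.42 over the top 25% of scores (0.976 to 2.10). Over the top 50% it was 1.22 (0.946 to 1.60), and both intervals included 1. The shortage against the middle part lay in the low scores. The ratio to the rest of 19q, 0.774, was 0.915 and 0.870 in these settings, and 0.678 against the stretch of equal length before the region. The ratio of the centromere side to the telomere side, 0.867, was 0.643 over the top 25%, and its interval excluded 1 with summits within 1 kb counted once (0.793, 0.633 to 0.990). Over the top 10% of scores, the differences in share were 4.53 points between the zinc-finger parts and the middle part, 5.13 between the telomere-side and the middle part, and 1.49 between the telomere-side part and the rest of 19q, where the interval included 0 (upper bound 6.26). That last interval also included 0 over the top 50% (6.47, -0.40 to 13.2) and for peaks with the nearest summit at 5 kb or more (7.65, -1.24 to 17.1). Against the stretch before the region, the shares of the telomere-side part and of the zinc-finger parts were 15.6 and 12.2 points higher. For neighbours within 10 kb, the difference from the middle part was 7.55 points over the top 25% of scores (-8.36 to 19.5). Over all peaks it was -6.38 points (-12.3 to 0.0293), and both intervals included 0. From the rest of 19q the difference was -17.3 points over the top 25% of scores and -2.34 points within 20 kb. The cause was not tested. Boundaries moved by 100 kb kept every density ratio within its interval. The repeated-score setting for densities, the neighbour setting for shares and the stretch before the region were chosen after seeing the data. No paired analysis was possible because the 1 list is tied to neither library, and no replicate could be left out.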
